A study of Mus musculus with 10 samples.

Results

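Matricellular proteins are secreted into the extracellular matrix, where they bind cell surface receptors, growth factors and collagen rather than carry load themselves. The genes described here were Postn, which encodes periostin, the thrombospondin genes Thbs1, Thbs2 and Thbs4, the tenascin gene Tnc, Ccn1 and Ccn2 (formerly Cyr61 and Ctgf), Sparc, the follistatin-like gene Fstl1, and the fibronectin gene Fn1. They were taken by name as a list of 10 genes, out of 12393 genes on the array, with earlier results of these data known. All 16 probe sets annotated to 1 of these symbols alone were used, out of 22626 that were not controls. Of the 10 genes 6 had 2 probe sets and 4 had 1. A probe set is a group of short probes against the 3′ end of a transcript, and its value is an intensity on a linear scale.

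In the adult heart most of these genes are low or expressed mainly in fibroblasts and other interstitial cells, and many are known to be induced when the muscle is injured or overloaded. Periostin binds collagen and integrins and helps collagen fibres form and crosslink, and it is widely used as a marker of activated cardiac fibroblasts. Transforming growth factor beta, mechanical stretch and the YAP and SRF pathways are known inducers of several members.

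The series measured ventricular RNA of mice in early mild and severe cardiac hypertrophy, on 10 arrays. The alpha-TM175 transgenic hearts (TM175) had 3 arrays, the alpha-TM180 transgenic hearts (TM180) 4 and the nontransgenic controls (NTG) 3. In each genotype 1 array carried RNA pooled from 20 hearts (TM175 array 3, TM180 array 4, NTG array 3) and the others carried RNA of 1 heart each. No treatment was given. The labels state neither age, sex, strain and number of founder lines nor the promoter of the transgenes, and they do not say whether the single hearts were also in the pools, so p-values measure the spread between these extracts.

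Median intensities of the arrays lay between 66.6 and 70.9, and the lowest correlation between arrays, over log2 values of all probe sets, was 0.964. The number of arrays limits the precision. Pooled and individual extracts differed in many probe sets with genotype in the model: limma called 5013, or 22.2% of all, and 2 of the 16 matricellular probe sets. Results are therefore given also from a limma model with extract type (pooled or individual) as a covariate. TM175 array 1 stood apart from the other individual arrays, with Xist, which is made from the inactive X, at 988 against 99.5 to 136, and Eif2s3y, a Y-linked gene, at 7.23 against 44.7 to 60.8. Xist also read higher in the TM175 and TM180 pools (414 and 394) than in the NTG pool (149). By these 2 genes TM175 array 1 read as female and the other single hearts as male. Sex was in no model, and its part in the comparisons was not tested. In TM175 array 1 Nppa, the atrial natriuretic peptide gene, read 521 against 5478 and 3822 in the other TM175 arrays, whereas Myh7, the beta myosin heavy chain gene, was at 6319, the highest of all 10 arrays, against 2529 and 5063. The cardiomyocyte markers Myh6, Tnnt2, Tnni3, Myl2 and Ryr2 were bright in all arrays. They summed to 33800 to 37328 in NTG, 32466 to 33298 in TM175 and 30819 to 34560 in TM180. Actc1, also on the list of cardiomyocyte markers, was left out of the sum because the size of its values could not be settled. As written its means were 8.20 in NTG, 8.28 in TM175 and 8.17 in TM180.

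By the test the transcripts were sorted into 3 sets. Postn, Sparc, Fstl1 and Fn1 stood above control in every array of both transgenic groups by their brighter probe set and passed the test in TM180. Thbs4 and Tnc did not pass with genotype alone and passed in TM180 with extract type in the model. Ccn2, Thbs1, Thbs2 and Ccn1 did not pass in either line in those models, although every TM180 array exceeded every NTG array for Ccn2, both Ccn1 probe sets and the dimmer Thbs1 probe set. Calls are limma adjusted p-values under 0.05, by Benjamini-Hochberg over all 22626 probe sets.

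**Figure D1:**
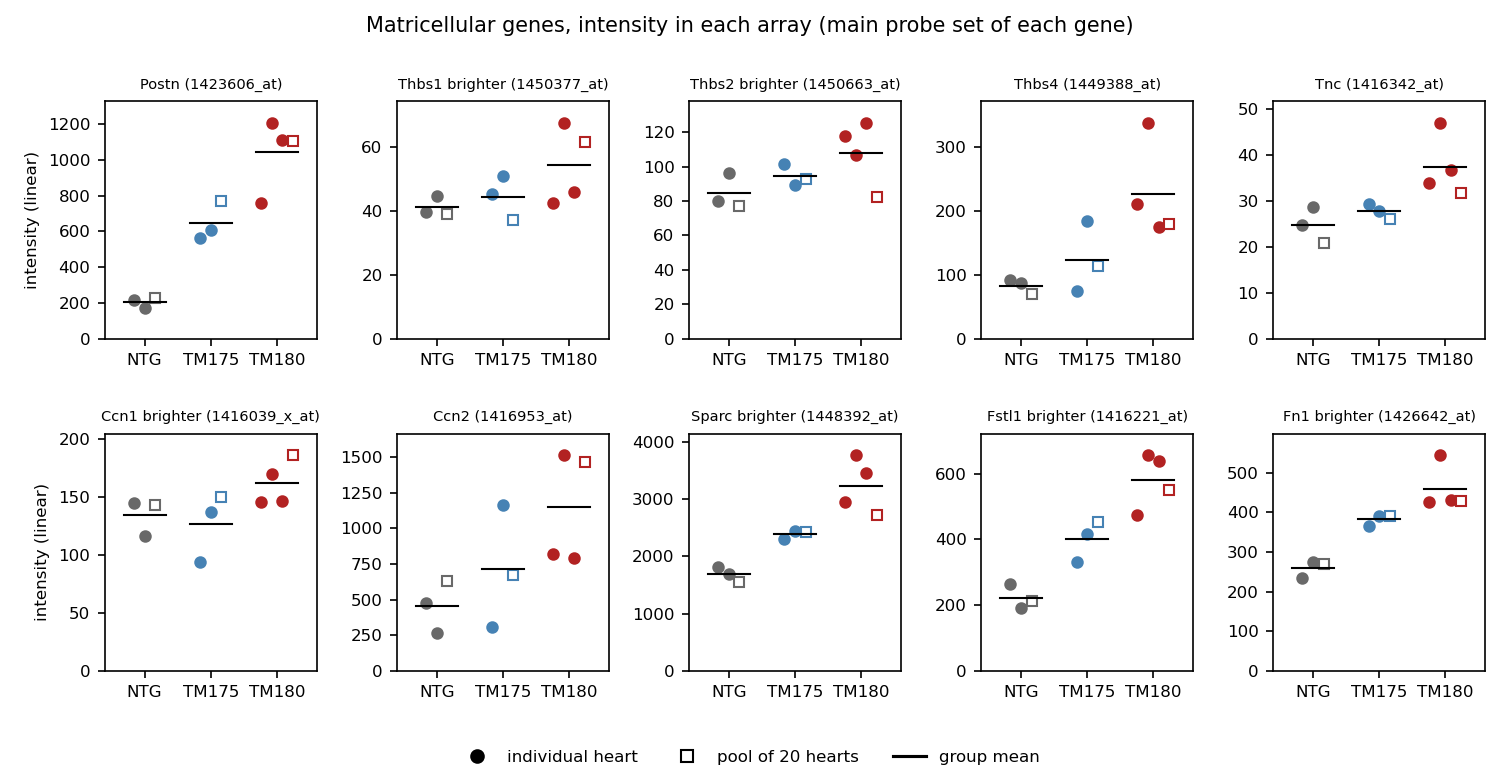
Intensity (linear scale, from 0) of the main probe set of each of the 10 genes in each array, by genotype. Filled circles are single hearts, open squares pools of 20 hearts and bars group means; for Postn, Sparc, Fstl1 and Fn1 every transgenic array lies above every NTG array, while Ccn2 spans 311 to 1167 within TM175.

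Against NTG, 1 of the 16 probe sets was called higher in TM175 and 5 in TM180, and none was called lower. Over all probe sets 0.00884% were called higher in TM175 and 0.371% in TM180. With extract type in the model the counts were 3 of 16 in TM175, against 0.128% of all probe sets, and 7 of 16 in TM180, against 1.47%. The 7 probe sets stood for 6 of the 10 genes. Every TM175 array exceeded every NTG array in 6 of 16 probe sets, as in 8.42% of all probe sets, and every TM180 array exceeded every NTG array in 11 of 16, as in 5.98%. The median log2 difference over the 16 was 0.46 in TM175 and 0.65 in TM180, where the medians over all probe sets were 0.04 and -0.01. Differences above 0 numbered 13 of 16 in TM175 and 15 of 16 in TM180, beside 57.9% and 48.5% of all probe sets. Both comparisons used the same 3 NTG arrays. Without TM175 array 1 none of the 16 was called in TM175, and 1, that of Postn, with extract type in the model. In TM180 the counts were then 5 and 8. Over all probe sets and in either direction, 0.00884% were then called in TM175 and 0.362% in TM180 (0.0619% and 2.14% with extract type). The TM180 count fell to 2 without NTG array 1 and without NTG array 3, and stayed at 5 or more with extract type in the model. Calls over all probe sets fell there too, from 0.504% with all arrays to 0.0354% and 0.11%. With extract type they were 2.01% with all arrays and 0.438% to 2.14% without 1 array.

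**Figure D2:**
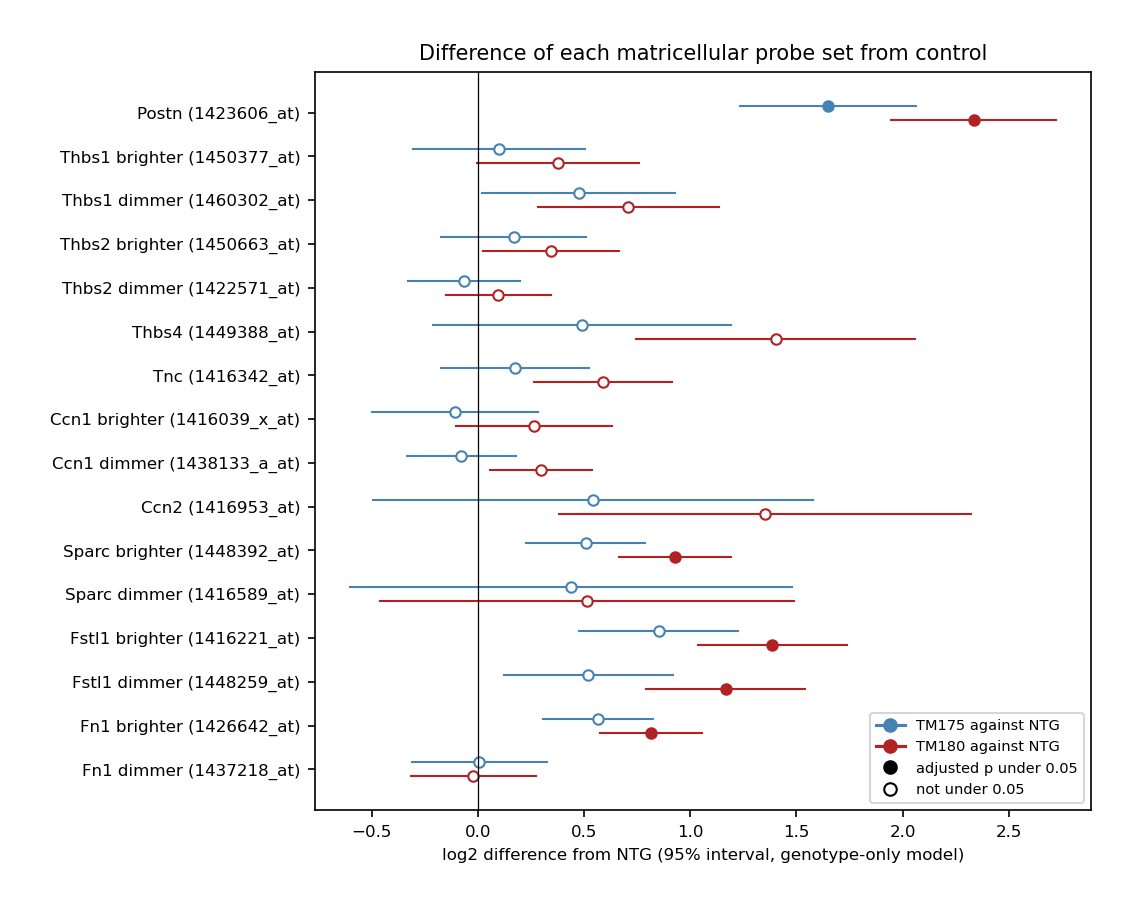
Log2 difference from NTG of each of the 16 probe sets in TM175 (blue) and TM180 (red), with 95% intervals from the limma model with genotype alone. Filled points had an adjusted p under 0.05: Postn in both lines, and the brighter Sparc and Fn1 and both Fstl1 probe sets in TM180.

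Postn (NCBI gene 50706, chr3:54359267-54391041 in GRCm38.p6) was read by 1 probe set. Values of single arrays are given in the order of the array numbers, so that the last of each group is the pool. Postn read 218, 173 and 227 in NTG, 562, 607 and 772 in TM175, and 760, 1207, 1110 and 1108 in TM180. Every transgenic array stood above every control array. The 2 lines met only at the top of TM175, where the pool (772) exceeded TM180 array 1 (760).

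Postn rose 3.14-fold in TM175 (95% interval 2.35 to 4.18, log2 difference 1.65 ± 0.19 SE, limma adjusted p = 0.0368). Group means were 206 ± 28.8 (SD, n = 3) for controls and 647 ± 110 (SD, n = 3) for TM175. In TM180 it rose 5.04-fold (3.85 to 6.60, log2 difference 2.33 ± 0.18 SE, adjusted p = 0.00125), with a mean of 1046 ± 197 (SD, n = 4). Its p-value was the smallest of all 22626 probe sets in TM180 and the second smallest in TM175, and by size its rise ranked 4 and 2. Extract type in the model left the TM175 difference at 1.65 (adjusted p = 0.00207) and gave 2.36 in TM180 (adjusted p = 4.66e-05). Pools alone gave 1.77 and 2.29, and individual hearts alone 1.59 and 2.37, with limma adjusted p of 0.103 and 0.0125 in a fit to the 7 individual arrays. The TM180 call held in all 10 fits that left out 1 array. The TM175 call held in 1 of those 10, the fit without TM180 array 1 (limma adjusted p = 0.00875), and its adjusted p reached 0.247 without NTG array 1. All 10 fits with extract type kept it.

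Fstl1 and Sparc both belong to the family of secreted proteins built around a SPARC domain. Sparc, also called osteonectin, binds collagen and takes part in the processing of procollagen. Fstl1 is a glycoprotein secreted by interstitial and muscle cells of the heart.

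Fstl1 (NCBI gene 14314, chr16:37777055-37836516) had 2 probe sets, and both moved alike. The brighter read 264, 191 and 211 in NTG, 331, 416 and 452 in TM175, and 474, 656, 639 and 550 in TM180. The groups did not overlap anywhere, and every TM180 array lay above every TM175 array. It rose 2.62-fold in TM180 (2.05 to 3.33, log2 difference 1.39 ± 0.16 SE, limma adjusted p = 0.00765), and this call held in all 10 fits that left out 1 array.

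In TM175 the brighter Fstl1 probe set was 1.80-fold above NTG (1.39 to 2.34), which did not pass (adjusted p = 0.142) but did when the model held extract type (0.0427). It was lost there in 6 of the 10 fits without 1 array, those without TM175 array 1, 2 or 3, TM180 array 4 or NTG array 1 or 3 (adjusted p up to 0.198). The dimmer probe set read 207 to 270 in NTG, 287 to 418 in TM175 and 421 to 635 in TM180. It rose 2.24-fold in TM180 (adjusted p = 0.0184), a call kept in 5 of the 10 fits and in all 10 with extract type in the model. The 5 that lost it left out TM180 array 2 or 3 or any 1 of the NTG arrays (adjusted p up to 0.0716). In TM175 it was at 1.43-fold (adjusted p = 0.284, and 0.106 with extract type).

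Sparc (NCBI gene 20692, chr11:55394159-55420080) had 2 probe sets that gave different pictures. The brighter read 1819, 1686 and 1547 in NTG, 2298, 2442 and 2428 in TM175, and 2951, 3766, 3447 and 2726 in TM180. The 3 groups did not overlap, and in TM180 the pool was the lowest array. The probe set rose 1.90-fold in TM180 (1.59 to 2.28, log2 difference 0.93 ± 0.12 SE, limma adjusted p = 0.0123). This call was lost without NTG array 1 (0.0536) or NTG array 3 (0.0524) and kept in the other fits without 1 array. In TM175 it was at 1.42-fold (1.17 to 1.73, adjusted p = 0.185, and 0.0523 with extract type).

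The dimmer Sparc probe set separated pools from single hearts. Single hearts read 1103 and 741 in NTG, 1090 and 1326 in TM175, and 1185, 1977 and 1144 in TM180, whereas the pools read 2019, 2853 and 3019 in the same order of groups. It was 2.25-fold brighter in pooled than in individual extracts (limma adjusted p = 0.000644), and it did not pass in any genotype comparison. When extract type was a covariate, the log2 differences of TM175 and TM180 from NTG were 0.44 and 0.61 (limma adjusted p = 0.221 and 0.133). The 2 Sparc probe sets correlated at r = 0.24 over the 10 arrays, against 0.96 for the 2 of Fstl1.

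Promoter stretches are shown for Postn, Sparc and Fstl1, because these 3 transcripts followed each other most closely across arrays. RefSeq (GRCm38.p6) gave windows from 250 bases before to 50 bases after an annotated start for 7 of the 10 genes, 9 windows in all, with 2 each for Postn and Tnc. Each line below gives the last 130 bases before the start, 5′ to 3′ on the strand of the gene, and capitals mark a match to TATAAA, to GGAATG (the TEAD motif) or to CAGAC (the Smad motif) on either strand. The Postn stretch belongs to the downstream of its 2 annotated starts and lies at chr3:54360977-54361106, plus strand. The upstream start, where the gene coordinates given above begin, is not shown. Its window held no TATAAA and 1 Smad motif, 191 bases before that start. That of Sparc lies at chr11:55420081-55420210, minus strand, and that of Fstl1 at chr16:37776925-37777054, plus strand.
Postn: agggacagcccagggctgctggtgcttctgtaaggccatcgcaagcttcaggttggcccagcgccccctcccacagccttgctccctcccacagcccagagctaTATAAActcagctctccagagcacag
Sparc: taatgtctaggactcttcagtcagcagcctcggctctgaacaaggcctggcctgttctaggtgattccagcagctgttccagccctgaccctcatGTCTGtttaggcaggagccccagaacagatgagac
Fstl1: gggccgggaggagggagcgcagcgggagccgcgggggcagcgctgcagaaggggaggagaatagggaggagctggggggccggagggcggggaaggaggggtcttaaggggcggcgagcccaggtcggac

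The Postn stretch held TATAAA starting 26 bases before the start, the Sparc stretch held 1 Smad motif 35 bases before it, and the Fstl1 stretch held none of the 3. Over the full windows TATAAA on either strand was present in 5 of the 9 (1 of Postn, those of Ccn1 and Thbs2, and both of Tnc), against 13.6% of 32851 promoter windows of the same length in the table. The Smad motif was in 7 of 9 against 49.6%, the E box CANNTG in 5 against 72.3%, and the TEAD motif in 2, those of Ccn1 and Thbs4, against 14.7%. The AP-1 motif TGANTCA and the CArG box matched in none, against 7.81% and 1.63%. All 6 motifs were searched on both strands, and matches of different motifs may share bases. The 2 Tnc windows overlap each other, and their TATAAA match is 1 site counted in both. They also share 1 Smad site and E boxes, so the counts over windows hold repeats. In Ccn1 and in the 1 Postn window TATAAA started 26 bases or less before the start. In Tnc and Thbs2 it lay farther upstream, in Thbs2 on the opposite strand. Whether any count exceeded the share over all windows was not tested.

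Fn1 and Tnc encode large glycoproteins of the matrix. Fibronectin assembles into fibrils that bind integrins and other matrix proteins, and tenascin C is an anti-adhesive protein that appears in the embryonic heart and again after injury.

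Fn1 (NCBI gene 14268, chr1:71585473-71653280) was read at 235, 274 and 269 in NTG, 365, 392 and 392 in TM175, and 426, 544, 431 and 430 in TM180 by its brighter probe set. The 3 groups did not overlap, and TM180 array 2 lay above the other 3 TM180 arrays, which read 426 to 431. It rose 1.76-fold in TM180 (1.49 to 2.08, log2 difference 0.82 ± 0.11 SE, limma adjusted p = 0.0153). The call was lost without NTG array 1 (0.0716) or NTG array 3 (0.0522). In TM175 it was at 1.48-fold (1.24 to 1.77, adjusted p = 0.16) and passed once extract type was a covariate (0.0478), where it held in 2 of 10 fits without 1 array, those without TM180 array 2 or NTG array 2.

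The second Fn1 probe set was dim, with a mean at the 13.0 percentile of all probe sets. It read 14.8 to 19.6 in NTG, 14.5 to 19.4 in TM175 and 14.5 to 17.9 in TM180, and the groups overlapped fully. It was 1.23-fold brighter in pooled extracts (limma adjusted p = 0.0181). Its log2 differences were 0.01 in TM175 and -0.02 in TM180, the latter turning to 0.0039 with extract type in the model, and it correlated with the brighter probe set at r = 0.01.

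Tnc (NCBI gene 21923, chr4:63959785-64047015) read 24.7, 28.6 and 20.8 in NTG, 29.4, 27.7 and 26.0 in TM175, and 33.8, 46.9, 36.8 and 31.6 in TM180. The TM180 arrays lay above all others, while TM175 and NTG overlapped. Its TM180 difference was 1.50-fold (1.20 to 1.89, log2 difference 0.59 ± 0.15 SE, limma adjusted p = 0.141), and it passed once extract type was a covariate (0.57, adjusted p = 0.028). That call was lost in 4 of 10 fits, those without TM180 array 2 or 4 or NTG array 1 or 3 (adjusted p up to 0.173). In TM175 the difference was 0.17 (adjusted p = 0.654).

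Thrombospondins are multimeric calcium-binding glycoproteins. Thrombospondins 1 and 2 inhibit vessel growth through CD36 and CD47, and thrombospondin 1 can activate latent transforming growth factor beta. Thrombospondin 4 is known for its induction in overloaded heart muscle, where it acts in the endoplasmic reticulum as well as in the matrix.

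Thbs4 (NCBI gene 21828, chr13:92751586-92794818) read 92.1, 86.5 and 70.1 in NTG, 74.0, 184 and 114 in TM175, and 211, 338, 175 and 180 in TM180. All TM180 arrays exceeded all NTG arrays, and TM175 array 1 lay within the NTG range while the other 2 TM175 arrays lay above it. The TM180 difference was 2.64-fold (1.68 to 4.17, log2 difference 1.40 ± 0.30 SE, limma adjusted p = 0.0749) and passed once extract type was a covariate (1.38, adjusted p = 0.0223). This was lost without TM180 array 4 or any 1 of the NTG arrays (adjusted p up to 0.141). In TM175 the log2 difference was 0.49 (adjusted p = 0.524), and without TM175 array 1 it was 0.81 (0.451).

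Thbs1 (NCBI gene 21825, chr2:118111876-118127133) did not pass in either line in either model. Its brighter probe set read 39.7, 44.8 and 39.2 in NTG, 45.3, 50.9 and 37.1 in TM175, and 42.4, 67.7, 45.9 and 61.8 in TM180, so that all 3 groups overlapped. Within TM180, arrays 2 and 4 stood above arrays 1 and 3, as they also did for Ccn2. The dimmer probe set read 25.7 to 37.2 in NTG, 39.3 to 47.8 in TM175 and 38.9 to 67.5 in TM180, so that both lines lay above NTG. Its TM180 log2 difference was 0.71 ± 0.19 SE (limma adjusted p = 0.181, and 0.0771 with extract type). In TM175 the probe sets differed from NTG by 0.10 and 0.47 (adjusted p = 0.838 and 0.369).

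Thbs2 (NCBI gene 21826, chr17:14665500-14694262) showed the smallest differences of the thrombospondins in TM180. The brighter probe set read 79.9, 96.1 and 77.4 in NTG, 102, 89.4 and 93.0 in TM175, and 118, 107, 125 and 82.4 in TM180. The single TM180 hearts exceeded all NTG arrays and the pool did not. The log2 difference was 0.34 ± 0.14 SE in TM180 (limma adjusted p = 0.474), with 0.41 in single hearts and 0.09 between the pools, and 0.17 in TM175 (0.655). The dimmer probe set differed from NTG by 0.10 in TM180 and -0.07 in TM175 (0.96 and 0.835).

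CCN proteins are short-lived secreted regulators that bind integrins and proteoglycans. Ccn1 and Ccn2 are both known as rapid targets of YAP and of stretch, and Ccn2 in particular as a product of cells stimulated by transforming growth factor beta.

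Ccn2 (NCBI gene 14219, chr10:24595442-24598683) was the most variable of the 10 main probe sets, with a coefficient of variation of 39.8% in NTG, 59.9% in TM175 and 34.5% in TM180. Its probe set read 474, 266 and 627 in NTG, 311, 1167 and 675 in TM175, and 820, 1515, 793 and 1467 in TM180. All TM180 arrays lay above all NTG arrays, whereas TM175 array 1 lay within the NTG range and TM175 array 2 reached into the TM180 range. The TM180 difference was 2.55-fold (1.31 to 5.00, log2 difference 1.35 ± 0.44 SE, limma adjusted p = 0.282, and 0.0946 with extract type).

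In TM175 the Ccn2 difference was 0.54 ± 0.47 SE (adjusted p = 0.634), and it moved with single arrays. It became 1.05 without TM175 array 1 and 0.09 without TM175 array 2, and neither passed. In TM180 the model with extract type called Ccn2 in 2 of 10 fits, those without TM175 array 1 or without TM175 array 2.

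Ccn1 (NCBI gene 16007, chr3:145646971-145649985) did not pass in either line. The brighter probe set read 145, 116 and 143 in NTG, 93.9, 137 and 150 in TM175, and 146, 170, 146 and 186 in TM180. Each TM180 array lay above each NTG array, though by less than 1 intensity unit at the closest, and TM175 array 1 was the lowest of all. Log2 differences were 0.26 ± 0.17 SE in TM180 (limma adjusted p = 0.755) and -0.11 in TM175 (0.816). Those of the dimmer probe set were 0.30 (0.363) and -0.08 (0.795). Both Ccn1 probe sets are of types, by the suffix of their names, whose probes may match other transcripts or several transcripts of the gene.

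**Figure D3:**
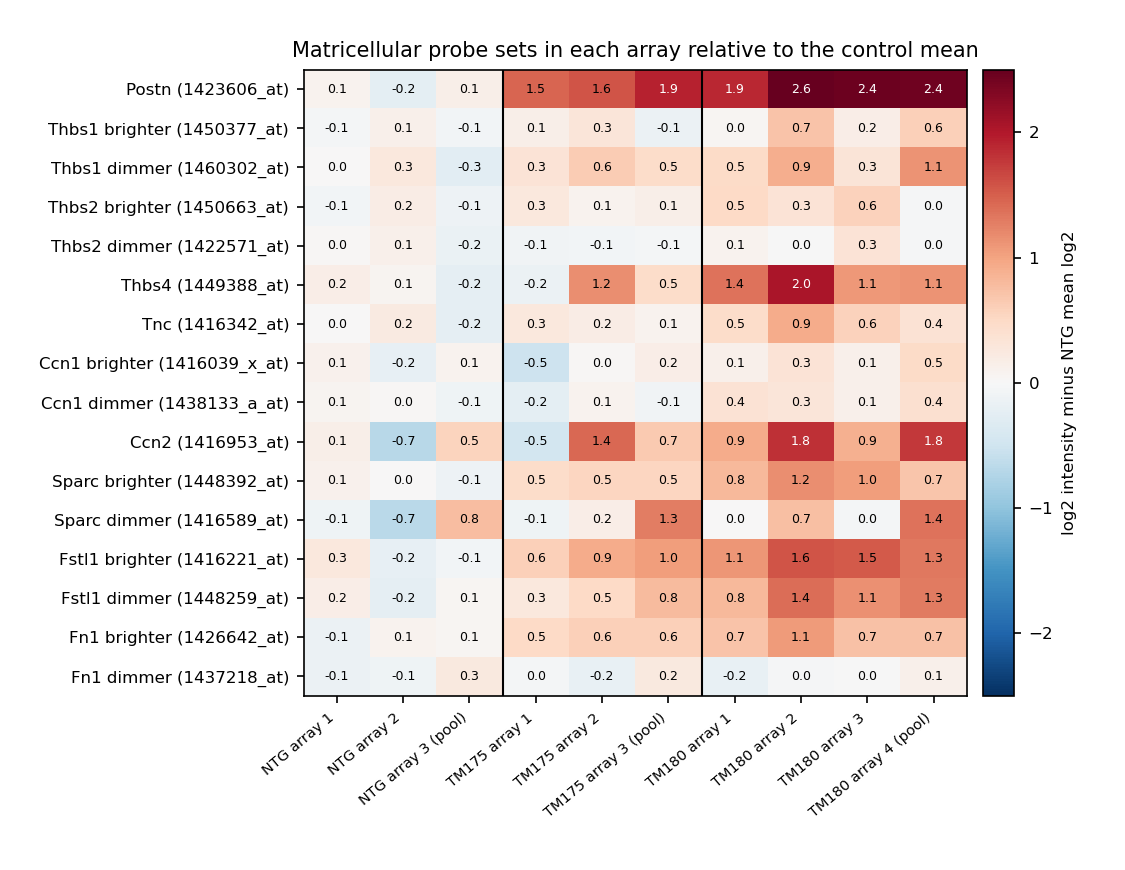
Log2 intensity of each of the 16 probe sets in each array, minus the NTG mean of that probe set. Postn is the strongest row in both lines; TM175 array 1 is near or below control for Thbs4, Ccn1 and Ccn2 though not for Postn, and the 3 pools are high for the dimmer Sparc probe set.

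Between the lines, no probe set was called in TM180 against TM175 by limma, 0 of 16 and 0.0% of all, whereas 9 of the 16 and 3001 of 22626 had an unadjusted p under 0.05. With extract type in the model 0 of 16 and 0.0265% of all were called, and 10 of the 16 and 5749 of 22626 had an unadjusted p under 0.05. The lowest adjusted p among the 16 was then 0.0757, shared by Postn and the dimmer Fstl1 probe set. All TM180 arrays exceeded all TM175 arrays in 7 of 16 probe sets, as in 6.22% of all. Those were the brighter Sparc and Fn1 probe sets, both of Fstl1, that of Tnc, and the dimmer ones of Ccn1 and Thbs2. Postn was 1.61-fold higher in TM180 than in TM175 (1.23 to 2.10, adjusted p = 0.302) and Thbs4 1.88-fold (1.19 to 2.97, adjusted p = 0.308), so the unadjusted 95% intervals excluded equal levels while the adjusted p-values did not pass. Differences above 0 numbered 15 of 16, beside 44.6% of all probe sets, with a median of 0.37 against -0.03 over all. With array weights 4 of the 16 passed, those of Postn, the brighter Sparc, the dimmer Fstl1 and Tnc (limma adjusted p from 0.0362 to 0.0482), where 10.3% of all probe sets did.

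Some of the 10 genes also moved together from array to array within genotypes. Over the 10 arrays Fstl1 had the highest correlation with Postn of all genes by their main probe sets (Pearson r = 0.98), and it kept r = 0.91 after genotype and extract type means were subtracted. Sparc (0.94 and 0.91 after subtraction) followed Postn in the same way. Fn1 did so before subtraction (0.95) and less after it (0.38). These are descriptions over 10 arrays that share their genotype groups and normalization.

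The genes most like Postn after Fstl1 were Dpysl3 (r = 0.97), the microfibril gene Mfap5 (0.97), the secreted olfactomedin-like gene Olfml3 (0.97), Ints6 (0.97), the vesicle traffic gene Rab31 (0.96), Fem1b (0.96) and Clip1 (0.96). After subtraction the values were 0.66 for Dpysl3, 0.87 for Mfap5, 0.88 for Olfml3, 0.66 for Ints6, 0.83 for Rab31, 0.09 for Fem1b and 0.35 for Clip1. Fem1b and Clip1 thus followed Postn between genotypes and little within them.

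Ccn2 followed other members more closely than it followed Postn. After subtraction Ccn2 correlated at 0.85 with the brighter Ccn1 probe set and at 0.86 with Thbs4, and Ccn1 with Thbs4 at 0.87, whereas Ccn2 and Postn gave 0.43. These pairs did not stand apart as a group of their own. The brighter Ccn1 probe set also correlated with both Fstl1 probe sets (0.78 each), Ccn2 with the dimmer Sparc probe set (0.73), and the dimmer Ccn1 probe set with Ccn2 at only 0.59. As log2 over the NTG mean, TM175 arrays 1 and 2 read -0.47 and 1.44 for Ccn2. They read -0.15 and 1.16 for Thbs4, and -0.51 and 0.03 for the brighter Ccn1 probe set. Correlations without TM175 array 1 were not computed. TM175 array 1 was the lowest TM175 array for 12 of the 16 probe sets, those of Ccn2, Thbs4, Ccn1, Postn, Fstl1 and Sparc among them. This was not counted over all probe sets, so the count has no baseline, and some of these probe sets share a gene. Nppa was low and Myh7 high in the same array, and their part in these values was not tested.

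**Figure D4:**
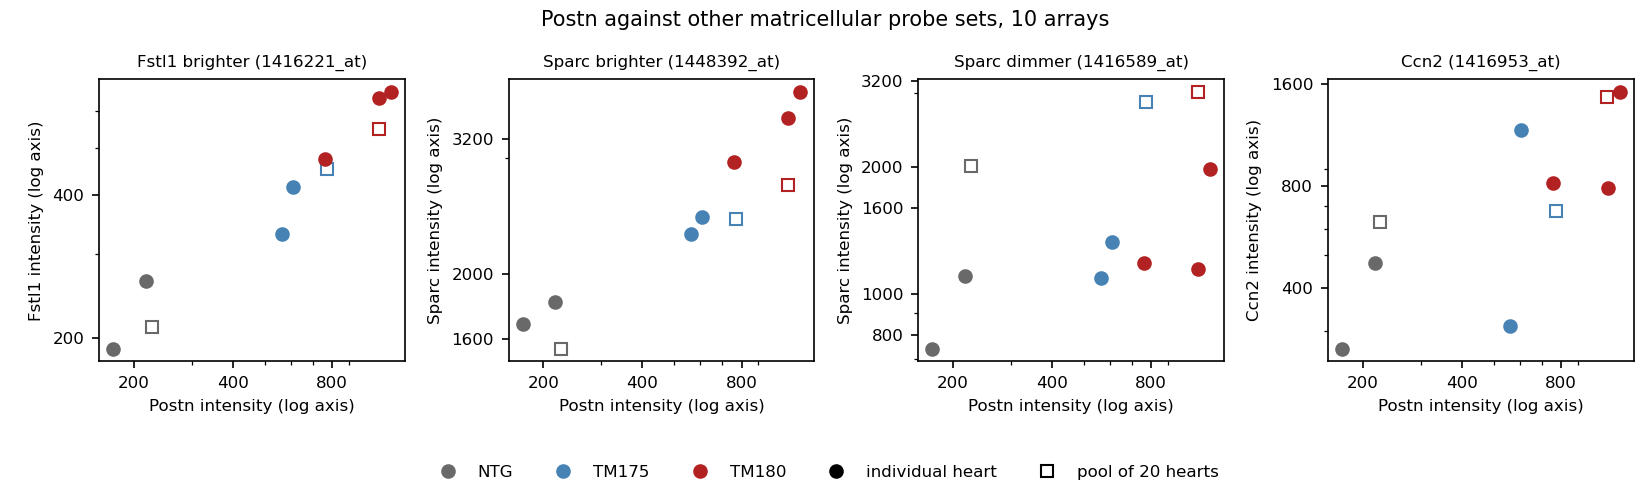
Intensity of Postn (x, log axis) against Fstl1, the 2 Sparc probe sets and Ccn2 (y, log axes) in the 10 arrays, coloured by genotype, with squares for pools. Fstl1 and the brighter Sparc probe set follow Postn (r = 0.98 and 0.94), the dimmer Sparc probe set splits pools from single hearts, and Ccn2 scatters (r = 0.73).

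Other genes of the matricellular families, taken from a list and read by the brightest probe set of each gene, moved less. Of 19 genes 15 were measured, and none was called by limma in any comparison with genotype alone. With extract type in the model 3 were called higher in TM180, where 1.47% of all probe sets were. Those were Comp, the cartilage member of the thrombospondin family (log2 difference 0.89, adjusted p = 0.0126), the elastic fibre gene Fbln5 (0.55, adjusted p = 0.0277) and the Sparc relative Sparcl1 (0.46, adjusted p = 0.0455). Of the 10 fits without 1 array 7 kept the call of Comp (lost without TM180 array 4 or NTG array 2 or 3), 5 that of Fbln5 (lost without TM180 array 1, 3 or 4 or NTG array 2 or 3) and 2 that of Sparcl1, which was kept only without TM175 array 1 or 2 (adjusted p up to 0.216). The median over the list was 0.08 in TM180 and 0.18 in TM175, beside -0.01 and 0.04 over all probe sets. Tnr, Tnn, Ccn6 and Spp1 had no probe set of their own symbol alone.

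Receptors of these proteins gave a similar count. Of 17 genes 15 were measured, and none was called with genotype alone. With extract type in the model 3 were called higher in TM180, again beside 1.47% of all probe sets. Itgav, the integrin subunit that pairs with several beta chains to bind periostin and other matrix proteins, was at 0.49 (limma adjusted p = 0.0408), and Itga9, a tenascin-binding subunit, was at 0.67 (0.0351). Stab1, a scavenger receptor that takes up Sparc, was at 0.61 (0.033). Fits without 1 array kept these calls in 2 of 10 for Itgav (those without TM175 array 1 or 3), in 4 for Itga9 (those without TM175 array 1 or TM180 array 1, 2 or 3) and in 3 for Stab1 (those without TM175 array 1 or 3 or NTG array 1), with adjusted p up to 0.216. The largest difference was that of Lrp1, an endocytic receptor for thrombospondins and Ccn2, at 0.79 (0.199, and 0.0683 with extract type). The list's median was 0.12 in TM180 and 0.05 in TM175.

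The last list held collagens, matrix enzymes and ligands of the transforming growth factor beta family. All 10 of its genes were measured. With genotype alone limma called 3 of them higher in TM180, beside 0.371% of all probe sets. They were Col1a1 (log2 difference 1.88 ± 0.25 SE, adjusted p = 0.015), Col1a2 (1.16 ± 0.20 SE, adjusted p = 0.0394) and Tgfb3 (0.89 ± 0.09 SE, adjusted p = 0.005). With extract type in the model 7 were called, beside 1.47% of all probe sets. This added Col3a1 (1.44), Col5a1 (0.89), the collagen crosslinking oxidase Lox (0.49) and Tgfb2 (1.12). The calls of Tgfb3 and, with extract type, of the 4 collagen genes held in all 10 fits without 1 array. With genotype alone Col1a1 was lost without TM180 array 2 or NTG array 1 or 2, and Col1a2 was kept only without TM175 array 1 or 3 or TM180 array 1 (adjusted p up to 0.157). With extract type Lox was kept only without TM180 array 1 or NTG array 2, and Tgfb2 only without TM175 array 1 or TM180 array 1 or 3 (adjusted p up to 0.215). Bmp1, Tgm2 and Tgfb1 did not pass, at 0.35, 0.28 and 0.17. The median was 0.88 in TM180 and 0.42 in TM175, and none of these brightest probe sets passed in TM175 in either model, where Col1a1 (0.96) and Tgfb3 (0.42) came closest, both at an adjusted p of 0.0507 with extract type.

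**Figure D5:**
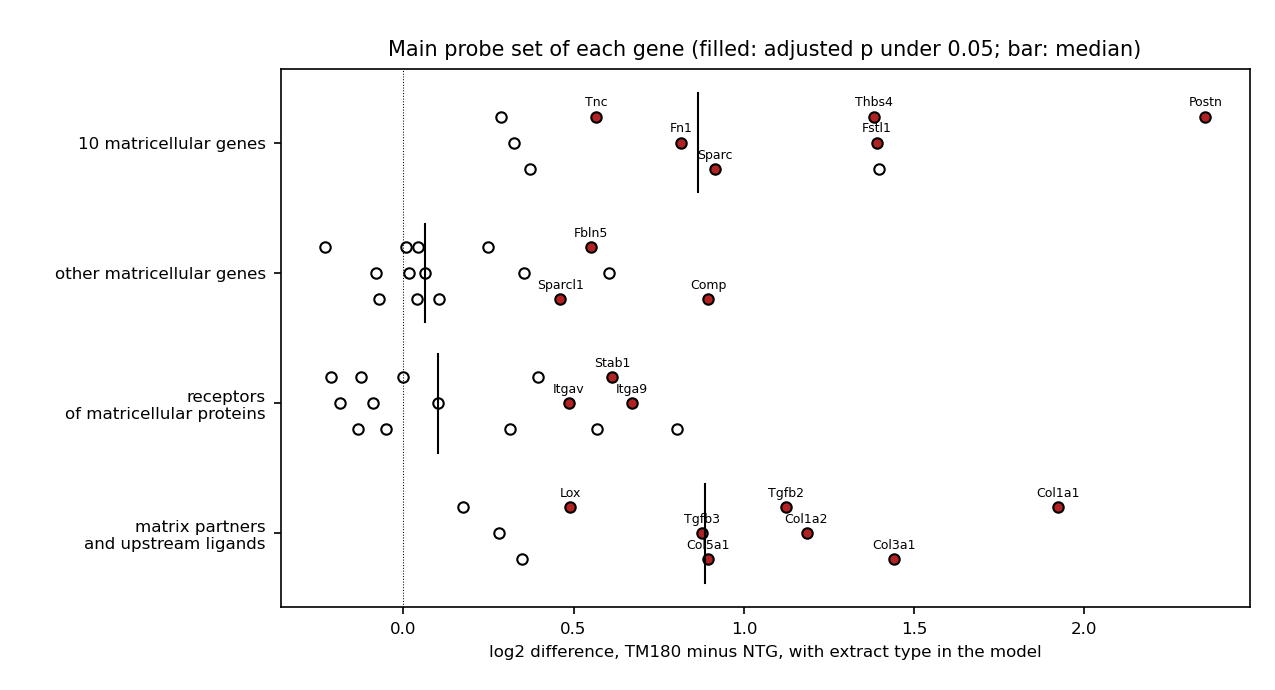
Log2 difference between TM180 and NTG, with extract type in the limma model, of the 10 matricellular genes and of 3 lists of related genes (brightest probe set of each gene). Filled points had an adjusted p under 0.05 and bars mark list medians. Filled are 6 of the 10 genes, 7 of the 10 matrix partners and ligands, and 3 of 15 in each of the other lists. Over all probe sets 1.47% were called higher in this comparison.

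Markers of the cells that make these proteins were read beside them. The 7 fibroblast markers Pdgfra, Tcf21, Ddr2, Thy1, Dpt, Dcn and Lum all lay above 0 in TM180, with a median of 0.33, and 6 of 7 did in TM175, with a median of 0.16. None passed with genotype alone. With extract type in the model Dpt (0.62, limma adjusted p = 0.0398) and Lum (0.71, adjusted p = 0.049) passed in TM180, where 1.47% of all probe sets were called higher. These calls were kept in 4 of 10 fits without 1 array for Dpt (those without TM175 array 1 or 2, TM180 array 2 or NTG array 1) and in 2 for Lum (those without TM175 array 1 or 2). Their summed intensity was 3540 to 5140 in NTG, 3936 to 6411 in TM175 and 4861 to 7153 in TM180, the highest value of each group being its pool. Their part in the rise of Postn and the other genes was not tested. In whole tissue, more cells of a type and more RNA per cell cannot be told apart.

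Smooth muscle and myofibroblast markers (Acta2, Tagln, Myh11 and Cnn1) summed to 1447 to 1700 in NTG, 1565 to 1895 in TM175 and 1501 to 2375 in TM180, and none passed. No endothelial, macrophage, lymphocyte, platelet or atrial marker passed in either model. Of the 2 measured tendon markers Tnmd passed in TM180 once extract type was a covariate (0.52, limma adjusted p = 0.0491), kept only without TM175 array 1 or 2, and Scx did not. Of the 3 mesothelial markers Upk3b fell by 0.85 on the log2 scale in TM180 (limma adjusted p = 0.0184), where it read 64.4 ± 7.61 (SD, n = 4) against 116 ± 9.56 in NTG (SD, n = 3). That call was lost without TM180 array 2 or 3 or any 1 of the NTG arrays and held in all 10 fits with extract type. It also fell in TM175 with extract type in the model (by 0.61, adjusted p = 0.0489), which only the fit without NTG array 2 kept. Msln and Wt1 did not pass. Atrial markers summed to 675 in TM180 array 3 and 537 in its pool, against 217 to 352 in the other 8 arrays, and their part in the values of those arrays was not tested. The sum followed Myl7, which read 455 and 337 in those arrays and 34.2 to 151 in the others, while Sln lay between 58.1 and 79.3 and Myl4 between 121 and 199 in all 10 arrays, with neither highest in those arrays.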

How the data were processed

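Ventricular RNA on 10 Affymetrix arrays was analysed from the deposited table, whose values are linear intensities of probe sets. The authors computed them with RMA, per the submitters' processing notes, and its version is not given in the sources used here. In that table intensities of 1000 or more carry a point before their last 3 digits. A value was therefore multiplied by 1000 where its written digits showed this mark, whatever its size, and the largest repaired value was 17346. Other values were multiplied where they lay more than 10% below 5.23, the smallest value under 10 written without this mark. Further values were multiplied where the other arrays of their probe set settled the level. The repair changed 7804 of 226900 values in 1053 probe sets, left the level of 234 probe sets unsettled, and settled all 16 matricellular ones. The repair had not been foreseen in the design, which assumed plain intensities.

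Of 22690 probe sets 64 were controls. Of the other 22626, 20380 carried 1 gene symbol. Log2 intensities (floor 1) were fitted with limma 3.58.1 in R 4.3.3 over all 10 arrays with 1 mean per genotype, two-sided, with Benjamini-Hochberg adjustment over 22626 probe sets and a threshold of 0.05. Means ± SD are of linear intensities, and intervals are 95%. The script was tested on simulated data. Tables used Python 3.11.15, pandas 2.3.3 and numpy 2.4.6, and plots matplotlib 3.10.9.

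Members, lists, motifs and rules were chosen with earlier results of these data known. All 10 members are named with all their probe sets. From the lists, genes called in either model and the largest TM180 difference of each list are named, and the 8 genes most correlated with Postn. The main probe set of a gene is its brightest of settled level. Alternatives were extract type as covariate, individual extracts only, replicate block, array weights, renewed quantile normalization, log2(intensity + 32), only the groups compared, probe sets brighter than the median, trend and robust fitting, unsettled probe sets left out, and leaving out each array.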

Additional observations from a re-analysis of the deposited data

Results flagged for a closer look

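In 16 groups of 4 TM180 arrays, 1 for each probe set, the highest or lowest array was compared with the rest. The brighter Fn1 probe set of TM180 array 2 was the 1 value far from its group, at 544.3 against 426 to 431 in the other 3 arrays, a gap of 0.959 of the group's whole range. About 1 in 20 such groups would be singled out by chance.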

How the results depend on the processing

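The TM175 count of 1 called probe set became 3 with extract type in the model, 5 with array weights, and 0 with individual extracts only, with log2(intensity + 32) and with only the groups compared. The TM180 count of 5 became 3 with individual extracts only and 9 with array weights, and the count of 0 between TM180 and TM175 became 4 with array weights. The highest of those weights went to NTG array 1 (2.92) and TM175 array 2 (3.24). Without 1 array the counts ranged from 0 to 1 in TM175 (1 to 3 with extract type), from 2 to 5 in TM180 (5 to 8) and from 0 to 0 between the lines (0 to 2, the latter without NTG array 1). The shares of all probe sets called in those fits were 0.00442% to 0.00884% in TM175 (0.0221% to 5.52% with extract type). They were 0.0354% to 0.597% in TM180 (0.438% to 2.14%) and 0.0% to 0.00442% between the lines (0.0% to 3.91%). Array weights also raised the share of all probe sets called, to 23.7% in TM175, 3.33% in TM180 and 10.3% between the lines, against 0.00884%, 0.504% and 0.0% in either direction with equal weights. With individual extracts these shares were 0.0133%, 0.194% and 0.0%. In TM175 the share was 0.862% with extract type, 0.00442% with log2(intensity + 32) and 0.0% with only the groups compared. Without NTG array 1 and with extract type, 3.91% were called between the lines. The cause was not tested.

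Whether replicate numbers pair the samples could not be settled from the values. Deviations of same-numbered arrays from their group means correlated between -0.53 (a single heart with a pool) and 0.71 (pool with pool). Between single hearts they correlated from -0.11 to 0.48. Number 3 is a pool in TM175 and NTG but a single heart in TM180. The fit with replicate number as a block called 0 matricellular probe sets in TM175, 4 in TM180 and 0 between the lines. Over all probe sets it called 0.00442%, 0.141% and 0.0%.

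Some values near 0 changed sign. For the dimmer Sparc probe set between the lines the log2 difference of 0.07 became -0.21 with the replicate block and -0.0624 with renewed quantile normalization, and it ranged from -0.21 to 0.49 without 1 array. For the dim Fn1 probe set, TM175 against NTG became -0.0433 with array weights and -0.0661 with quantile normalization. TM180 against NTG became 0.00387 with extract type, 0.0559 with individual extracts, 0.00327 with array weights and 0.00563 with quantile normalization. TM180 against TM175 became 0.0387, 0.0466 and 0.0718 with individual extracts, array weights and quantile normalization. Without 1 array these 3 ranged from -0.11 to 0.13, from -0.10 to 0.11 and from -0.12 to 0.088. TM175 against NTG ranged from -0.00453 to 0.26 for the brighter Thbs1 probe set, from -0.24 to 0.0948 and from -0.17 to 0.00795 for the brighter and dimmer Ccn1, and from -0.0398 to 1.05 for Ccn2. Over 1843 alternatives of single values, 1641 kept direction and side of the threshold, 118 came to pass it, 39 no longer did and 45 changed sign. Most of these values were not called with genotype alone and so could not lose a call. Of 30 alternatives, 17 kept the call of Postn in TM175. In TM180, 19 kept that of Col1a2, 23 that of the dimmer Fstl1 probe set, and 27 to 30 each of the other calls.

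The groups held 3 or 4 arrays, 1 of them a pool, which limits the precision. The dimmer Thbs1 probe set passed in TM180 with extract type without TM180 array 3 (adjusted p = 0.0396) and with array weights in TM175 and TM180 (0.0279 and 0.0418). With array weights the brighter Thbs2 probe set also passed in TM180 (limma adjusted p = 0.0385), as did Thbs4 (0.0237) and Tnc (0.027). The brighter Sparc probe set then passed in TM175 (0.0181). Of all probe sets 23.7% passed in TM175 and 3.33% in TM180 with these weights. Intensities of different probe sets are not comparable as levels.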
